A study of Saccharomyces cerevisiae with 12 samples.

Results

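The transcripts of 2 prototrophic strains of Saccharomyces cerevisiae, YSBN2 and CEN.PK 113-7D, were compared in aerobic batch culture. The comparison rests on 6 arrays, 3 of each strain, out of 12 arrays in the series. The other 6 arrays are of the same strains in glucose-limited chemostat culture. All 5716 probe sets were compared, as YSBN2 minus CEN.PK 113-7D. The labels give CEN.PK 113-7D as prototrophic and mating type a. For YSBN2 they give a prototrophic FY background and the genotype ho::Ble/ho::HphMX4, so that 2 ho alleles are named, and neither its ploidy nor its mating type is stated. FY strains belong to the S288C lineage. Batch cultures of both strains began at 30 g/L glucose and were held at 30 °C and pH 5 in 4 L reactors, and total RNA was labelled with biotin for Affymetrix arrays. In the chemostat feed glucose stood at 7.5 g/L beside 0.3 g/L ethanol, and the dilution rate was 0.1 per h. Each strain stands for its lineage as a single strain, and the replicates are labelled biological. The point of growth at which the batch cultures were sampled is not given in the sources used here.

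Yeast cells tune transcription to their mating type and to the nutrients around them. Haploid a cells transcribe a-specific genes and the haploid-specific genes of pheromone signalling. Cells that carry both mating types repress both groups. Glucose represses genes for storage carbohydrate, for other carbon sources and for respiration. Separate pathways hold down phosphate uptake genes when phosphate is plentiful and genes for poor nitrogen sources when good ones are present.

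Values are deposited log2 signals, and a difference of 1 is a doubling. Signals ran from 1.689 to 16.197 with a floor near 2, and 8.362% to 9.797% of the probe sets of a batch array lay under 4, where signal carries little information on level. A probe set was called when its adjusted p was under 0.05 in limma, which fits a linear model to each probe set. The Benjamini-Hochberg adjustment ran over all probe sets. Levels are given as mean ± SD (n = 3 arrays) and differences with their standard error (SE). The fit took all 12 arrays, so the SE also draws on the spread of the chemostat arrays and can exceed what the batch SDs show. Replicate batch arrays correlated at 0.9609 or more. One array of the 6, the third of YSBN2, differed from its replicates: 196 of its probe sets were 2 or more log2 units away from the average of its partners, 178 above it and 18 below. The first CEN.PK 113-7D array had 77 such probe sets, all below, the second YSBN2 array 59, and the other batch arrays 3 to 38. The hexose transporter gene HXT2 read 11.89, 12.13 and 11.84 in CEN.PK 113-7D and 4.26, 4.21 and 14.04 in YSBN2. Its difference of -4.45 ± 2.14 was not called (adjusted p = 0.15), and without the third array it was -7.72 (adjusted p = 3e-10). PRM7, a pheromone-regulated gene, read 4.38, 4.34 and 13.37 in YSBN2, and YOR338W read 2.03, 2.04 and 12.16. Counts are therefore also given without that array for some lists. The count of a list given without it can change too.

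The strains differed in 1661 of 5716 probe sets (29.1%). Of these 1060 (18.5% of all) were higher in YSBN2 and 601 (10.5%) were lower. At least 2-fold differences were called in 452 higher and 162 lower probe sets, and at least 8-fold differences in 115 and 41. The median difference of all probe sets was 0.02. The arrays of the strains did not overlap in 40.1% of probe sets: in 24.2% all YSBN2 arrays lay above all CEN.PK 113-7D arrays, and in 15.9% all lay below. Without the third YSBN2 array 2485 probe sets were called, 1370 higher and 1115 lower. The share of calls that were higher was 63.8% as deposited, 50% when all arrays were set to a common median, which shifted the median difference by -0.10, and 47.6% after quantile normalization. Differences of about that size have no settled direction.

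**Figure D1:**
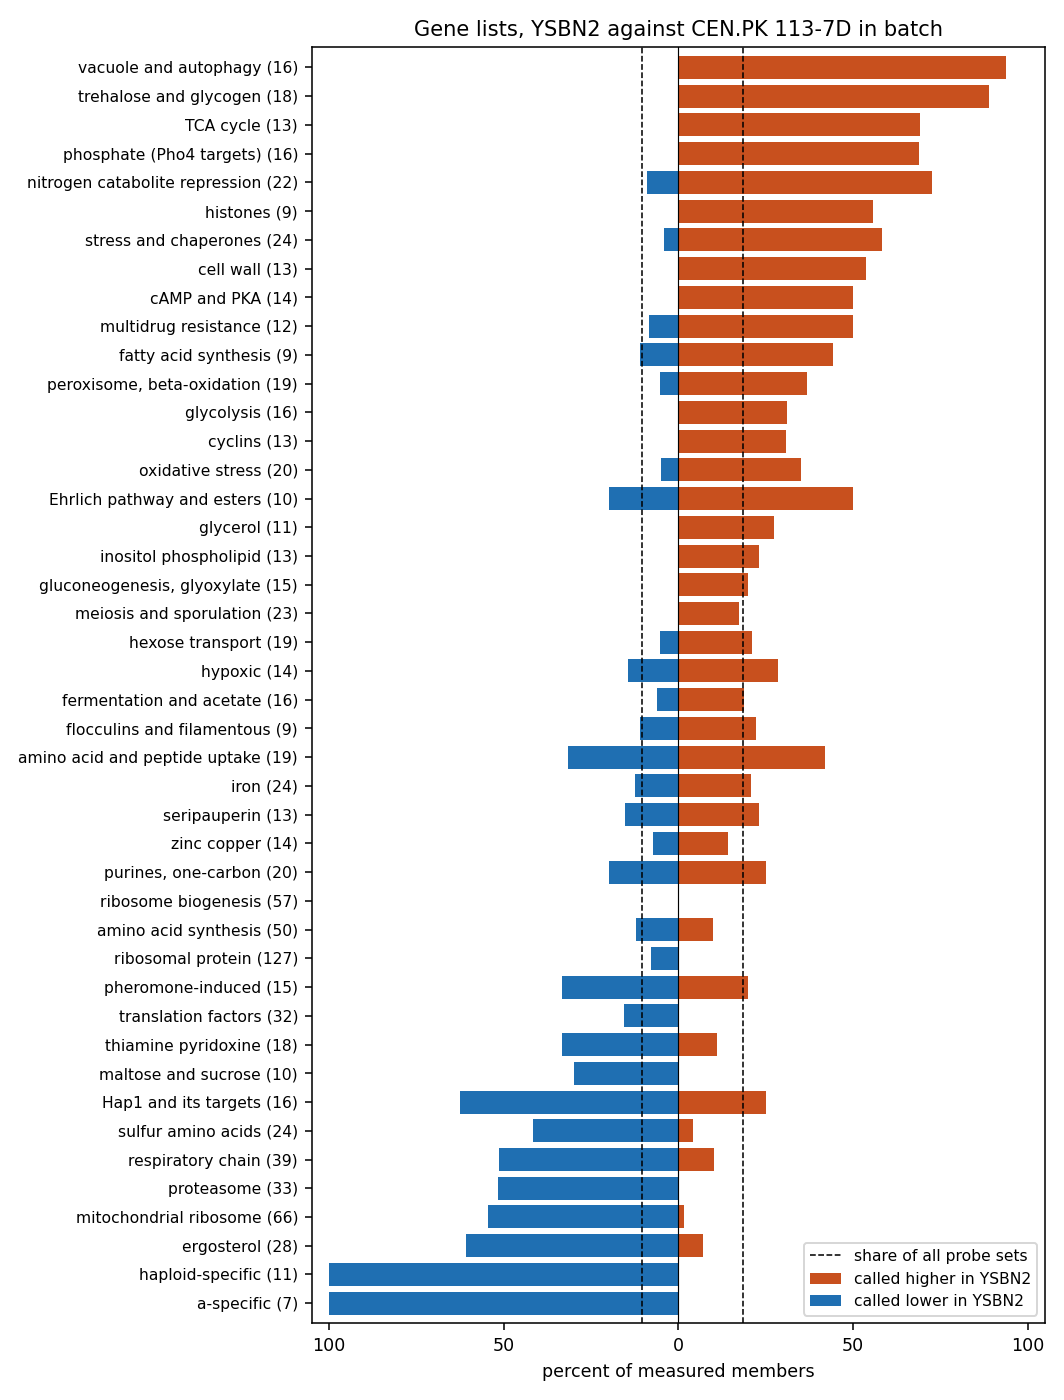
Percent of the measured members of each gene list (number measured in parentheses) that were called higher (right, orange) or lower (left, blue) in YSBN2 than in CEN.PK 113-7D in batch, n = 3 arrays each. Dashed lines mark the shares of all probe sets, 18.5% higher and 10.5% lower. Vacuole, storage carbohydrate, phosphate and nitrogen lists lie far to the right, and the a-specific and haploid-specific lists reach 100% on the left.

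The genes of mating and of the haploid state were the clearest set of falls. All 7 a-specific genes and all 11 haploid-specific genes were called lower in YSBN2, with medians of -7.59 and -4.38. HO, the endonuclease of mating-type switching, is on the haploid-specific list and is also the gene disrupted in YSBN2. Its fall is therefore not a separate reading of the haploid state. HO read 12.62, 12.55 and 12.46 in CEN.PK 113-7D and 2.39, 2.39 and 2.30 in YSBN2. The groups lay far apart, and the difference was -10.18 ± 0.10 (adjusted p = 6.2e-12). The position of the probe set relative to the disruption was not analysed here.

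Of the a-specific genes, BAR1, the protease that degrades alpha-factor, read 12.73, 12.85 and 12.87 in CEN.PK 113-7D and 3.13, 3.08 and 4.26 in YSBN2 (difference -9.33 ± 0.47, adjusted p = 7.3e-07). MFA2, a precursor of the a-factor pheromone, read 15.12, 14.97 and 15.04 against 6.22, 4.82 and 9.27 (-8.27 ± 0.87, adjusted p = 0.00011). The third YSBN2 value was the highest of the strain and still lay below every CEN.PK 113-7D value. The other a-factor gene, MFA1, fell by 5.25 and kept a level of 8.37 ± 0.41 in YSBN2. AGA2, the adhesion subunit of a-agglutinin, differed by -8.00, STE2, the alpha-factor receptor, by -7.59, and STE6, the exporter of a-factor, by -7.45. ASG7 was already low in CEN.PK 113-7D (4.41, 4.59 and 5.25) and was the only one of the 7 no longer called when values under 6 were raised to 6. RNA was taken from whole cultures, so fewer cells that transcribe a gene and less RNA per cell cannot be told apart.

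**Figure D2:**
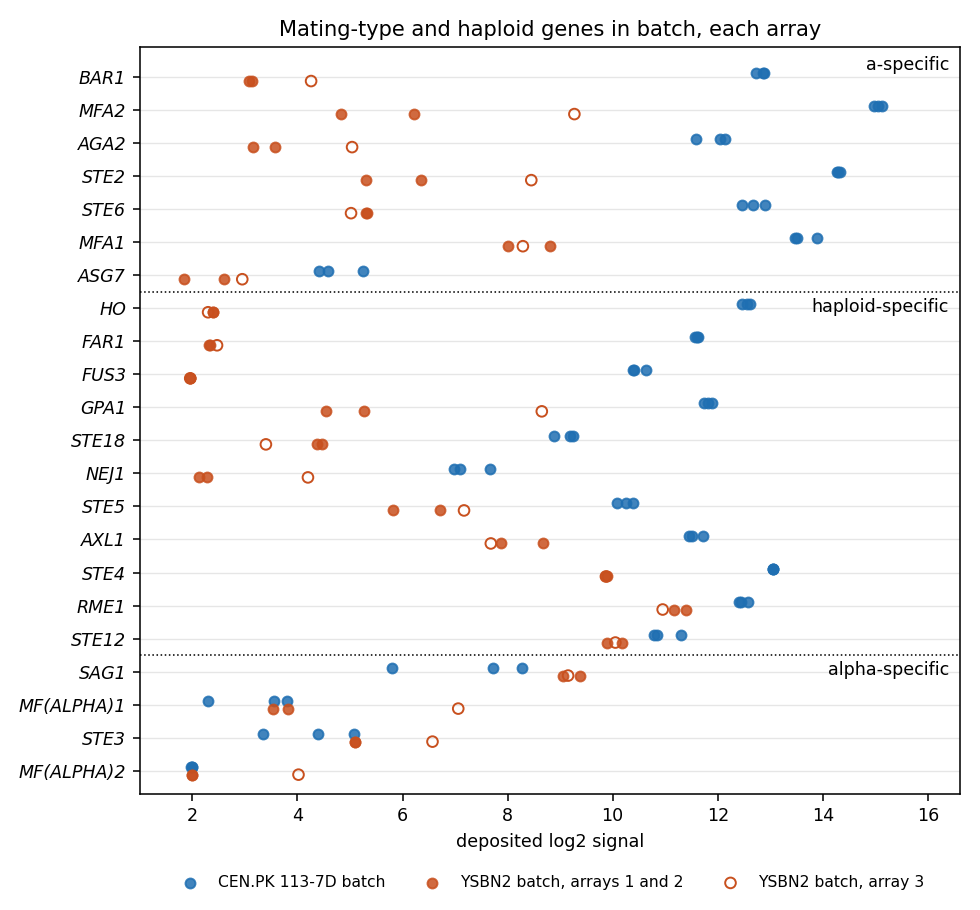
Deposited log2 signal (x axis) of the a-specific, haploid-specific and alpha-specific genes in each batch array. Blue points are the 3 CEN.PK 113-7D arrays, filled orange points YSBN2 arrays 1 and 2, and open orange points YSBN2 array 3. In the upper and middle groups every YSBN2 point lies left of every CEN.PK 113-7D point. The means of the 4 alpha-specific genes are 0.68 to 1.93 higher in YSBN2, with 1 of the 4 called.

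The haploid-specific genes encode the pheromone signalling chain and its neighbours. FUS3, the mitogen-activated kinase of the pathway, read 10.41, 10.38 and 10.63 in CEN.PK 113-7D and 1.96 in each YSBN2 array, at the floor (difference -8.52 ± 0.24). FAR1, which arrests the cell cycle on pheromone, fell from 11.60 ± 0.03 to 2.38 ± 0.08 (-9.22 ± 0.70, adjusted p = 1.2e-05). The G protein subunits did not fall alike: GPA1 differed by -5.67 ± 0.85, STE18 by -5.02 ± 0.32 and STE4 by -3.17 ± 0.11, and STE4 still read 9.87 to 9.89 in YSBN2. The scaffold STE5 (-3.68 ± 0.33), the protease AXL1 (-3.48 ± 0.28) and the meiotic repressor RME1 (-1.31 ± 0.13) followed. Values in which 1 strain lies near the floor depend on that floor: with values under 6 raised to 6 the differences were -6.54 for HO, -6.82 for BAR1, -5.60 for FAR1, -4.47 for FUS3 and -3.10 for STE18, all still called. The counts of both lists were the same without the third YSBN2 array.

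The alpha-specific genes did not mirror these falls. Of 4 measured, 1 was called higher and 0 lower. SAG1, the alpha-agglutinin, read 5.80, 7.72 and 8.28 in CEN.PK 113-7D and 9.37, 9.05 and 9.15 in YSBN2 (1.93 ± 0.54, adjusted p = 0.025), and lost the call in a fit of only the 6 arrays (adjusted p = 0.11) and without the first or the second YSBN2 array (adjusted p = 0.076 and 0.057). STE3, the a-factor receptor, and MF(ALPHA)1, the alpha-factor precursor, differed by 1.31 ± 0.52 and 1.59 ± 0.83, neither called, and their highest value was in the third YSBN2 array. In the chemostat 1 of the 4 was called higher and 0 lower, with a median of 0.22, and the MF(ALPHA)1 difference was 4.8.

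Of 15 genes that pheromone induces 5 were lower (33.3%, against 10.5% of all probe sets), or 3 without the second YSBN2 array, and 3 were higher (20%, against 18.5%). FUS1, a cell fusion protein, fell by 5.88 (SE 0.46), and SST2, which switches the G protein off, fell by 4.60 (SE 0.51). FIG2, a mating cell wall protein, went the other way, from 6.26 ± 0.25 to 9.04 ± 0.34 (2.79 ± 0.24, adjusted p = 2.4e-05). Among meiosis genes 4 of 23 were higher and 0 lower, a share of 17.4% beside 18.5% of all probe sets. IME4, a methyltransferase needed for sporulation, read 2.76, 2.75 and 2.01 against 8.37, 8.46 and 8.58, and SPS4, a sporulation gene, rose by 4.63 ± 0.29. With values under 6 raised to 6 the differences were -3.63 for FUS1 and 2.47 for IME4. In a fit of only the 6 arrays 3 of the pheromone-induced genes were lower.

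A number of genes gave signal in 1 strain alone. For 16 probe sets, among them those of 14 named genes, all 6 CEN.PK 113-7D arrays of both cultures lay under 4 while all YSBN2 batch arrays lay at 6 or above. The 14 genes are AIF1, HAL5, SEO1, ENA5, RSB1, EHD3, SPL2, FCY22, COS8, ARN2, AYT1, FCY21, IME4 and PHO5. ENA5, a sodium pump gene of a tandem array whose probe sets may read its near-identical copies, read 2.92, 3.05 and 3.01 in CEN.PK 113-7D and 12.43, 12.50 and 12.26 in YSBN2 (9.41 ± 0.12, adjusted p = 2.9e-11). COS8, of a subtelomeric family, read 2.44 in each CEN.PK 113-7D array and 11.56 ± 0.11 in YSBN2. HAL5, a kinase that stabilises potassium transporters, differed by 8.81 ± 0.25, AIF1, a mitochondrial cell death factor, by 8.78 ± 0.14, RSB1, which exports sphingoid bases, by 9.08 ± 0.65, and ARN2, a siderophore transporter, by 8.07 ± 0.15. All of these differences were called, also with values under 6 raised to 6, where they ran from 4.13 for ARN2 to 6.40 for ENA5. In the other direction 3 probe sets were low in all 6 YSBN2 arrays, those of HO, FUS3 and COS12, the last with a difference of -5.37 ± 0.31, or -1.36 with the raised floor. The labels give HO as disrupted in YSBN2. Elsewhere a gene missing from a strain, a sequence that differs under the probes and a gene without transcript cannot be told apart here.

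Some large differences fell on neighbouring genes. There were 4 runs of at least 3 neighbouring measured genes that were all called higher by at least 2 log2 units, and none in which all were lower. On chromosome IV the mitochondrial hydrolase gene EHD3 (6.62), the lysyl-tRNA synthetase gene KRS1 (2.98) and ENA5 (9.41) stood side by side. KRS1 was well above the floor in both strains, at 11.63 ± 0.29 and 14.61 ± 0.09. On chromosome V the permease genes FCY21 (5.07) and FCY22 (5.36) lay beside CEM1 (3.08), an enzyme of mitochondrial fatty acid synthesis. On chromosome X the run was QCR8 (2.53), a subunit of the cytochrome bc1 complex, HAL5 (8.81) and YJL163C (4.50). The fourth run, DAL1 (5.59), DAL4 (4.87) and DAL2 (4.43) on chromosome IX, holds the allantoin genes, which use a nitrogen store. In the chemostat the differences on chromosome IV were 7.58 for EHD3, 3.68 for KRS1 and 9.87 for ENA5. On chromosome V the chemostat differences were -0.00 for FCY21, 6.19 for FCY22 and 2.54 for CEM1. On chromosome X they were 2.89 for QCR8, 9.24 for HAL5 and 0.33 for YJL163C, and on chromosome IX 3.05 for DAL1, 3.29 for DAL4 and 1.17 for DAL2. Those of FCY21, YJL163C and DAL2 were not called. With values under 6 raised to 6 the batch differences were 3.18 for EHD3, 1.01 for FCY21, 2.74 for FCY22 and 3.15 for DAL1, all called.

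Many targets of the phosphate regulator Pho4 were higher in YSBN2, a few of them by a large amount. Of 16 measured targets 11 were called higher (68.8%) and 0 lower, with a median of 0.87, and 12 without the third YSBN2 array. PHO84, the high-affinity phosphate transporter, had the largest rise of the named genes, with or without the raised floor. It read 1.86, 2.53 and 2.78 in CEN.PK 113-7D against 14.48, 14.92 and 14.46 in YSBN2 (12.23 ± 0.35, adjusted p = 1.3e-08). The difference was 8.62 once values below 6 were set to 6. SPL2, which restrains low-affinity phosphate uptake, rose from the floor to 12.18, 13.27 and 10.44 (9.63 ± 0.55, or 5.96 with the raised floor). PHO5, the secreted acid phosphatase, read 2.07 ± 0.02 against 9.30 ± 0.32 (7.22 ± 0.20, or 3.30 with the raised floor). The phosphate transporter gene PHO89 was not called (0.48, adjusted p = 0.65). PHM6 (3.32 ± 0.43) and VTC3 (1.52 ± 0.25), a subunit of the polyphosphate polymerase, both chosen after their values were seen, rose as well.

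In the chemostat the same strain comparison gave 2 phosphate genes higher and 6 lower. PHO84 was 3.92 lower in YSBN2 there (difference -3.92, adjusted p = 6.3e-05), and SPL2 lay at the floor in both strains. PHO5 differed by 7.22 in both cultures. The difference between the batch and chemostat contrasts was called in 10 of the 16 genes, all of them more positive in batch, against 11.1% of all probe sets.

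Genes for poor nitrogen sources rose together. Of 22 measured genes under nitrogen catabolite repression 16 were called higher (72.7%) and 2 lower, with a median of 1.69, and 18 and 2 without the third YSBN2 array. DAL80, a repressor of the group, read 3.37, 3.36 and 3.53 in CEN.PK 113-7D and 13.28, 13.18 and 12.23 in YSBN2 (9.47 ± 0.35, adjusted p = 8.9e-08). DUR3, a urea transporter, read 2.35, 4.33 and 3.24 against 9.88, 9.63 and 9.14 (6.24 ± 0.45). PUT4, the proline permease, differed by 6.76 ± 0.62, and its 3 CEN.PK 113-7D values were spread from 3.62 to 6.45. A further 3 permease genes, chosen after their values were seen, were not near the floor: the allantoate permease DAL5 went from 9.06 ± 0.13 to 14.79 ± 0.08, the general amino acid permease GAP1 from 12.41 ± 0.20 to 15.19 ± 0.02, and the ammonium transporter MEP2 from 14.04 ± 0.03 to 15.62 ± 0.04. UGA4, the permease of 4-aminobutyrate, was lower (-2.88 ± 0.69), as was the ammonium transporter MEP1 (-0.94 ± 0.28). Both of these calls were lost in a fit of only the 6 arrays (adjusted p = 0.084 and 0.14). The MEP1 call was also lost without any one of the CEN.PK 113-7D arrays (adjusted p = 0.065, 0.094 and 0.072), and its difference was -0.54 without the third YSBN2 array. With values under 6 raised to 6 the differences were 6.89 for DAL80, 3.55 for DUR3 and -1.02 for UGA4, all called.

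Genes of amino acid and peptide uptake went both ways. Of 19 on the list 8 were higher (42.1%, against 18.5% of all probe sets) and 6 lower (31.6%, against 10.5%). The list also holds SSY1, PTR3, SSY5, STP1 and STP2, which sense amino acids or regulate uptake and are not counted here as transporters. SSY1 and STP2 were among those higher. OPT2, an oligopeptide transporter, read 8.36, 8.45 and 9.29 in CEN.PK 113-7D and 13.44, 13.59 and 13.41 in YSBN2 (4.78 ± 0.20). DIP5, the dicarboxylic amino acid permease, rose by 4.34 ± 0.53. The branched-chain amino acid permease genes BAP2 and BAP3 differed by -4.26 and -3.65, with values near the floor in YSBN2, and neither was called with values under 6 raised to 6. MUP1, the high-affinity methionine permease, fell by 2.61 (SE 0.37). With it 10 of 24 sulfur amino acid genes were lower (41.7%, against 10.5% of all probe sets) and 1 higher (4.17%, against 18.5%). The siroheme synthase gene MET8 led the falls (-3.53 ± 0.57), and a fit of only the 6 arrays gave 6 lower. The sulfate permease gene SUL1 was the one higher (1.04 ± 0.08). The 50 genes of amino acid synthesis changed little, with a range from -0.54 to 0.80. Of them 5 were higher (10%, against 18.5% of all probe sets) and 6 lower (12%, against 10.5%). With a common array median 1 was higher and 8 lower. Without the second array of either strain 2 were higher and 2 lower.

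Storage carbohydrate genes were higher in YSBN2 almost throughout. Of 18 genes for trehalose and glycogen 16 were called higher (88.9%) and 0 lower, with a median of 2.25, the same counts without the third YSBN2 array. GPH1, glycogen phosphorylase, read 3.10, 2.83 and 2.93 in CEN.PK 113-7D and 11.31, 11.56 and 10.93 in YSBN2 (8.31 ± 0.15, adjusted p = 3.7e-10, or 5.26 with the raised floor). PGM2, phosphoglucomutase, read 5.44, 5.96 and 7.03 against 12.02, 12.31 and 11.99 (5.97 ± 0.32). GSY2, glycogen synthase, rose by 4.79 ± 0.55. Of the pair not called, GAC1, a glycogen phosphatase subunit, read 2.95, 3.73 and 8.09 in YSBN2 and was chosen after its values were seen.

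Stress and vacuolar genes were higher too. Of 24 stress and chaperone genes 14 were higher (58.3%, against 18.5% of all probe sets) and 1 lower (4.17%, against 10.5%), with a median of 0.93. HSP12, a membrane stress protein, went from 10.53 ± 0.13 to 14.48 ± 0.13 (3.95 ± 0.09, adjusted p = 1.5e-09), and SOL4, a 6-phosphogluconolactonase, rose by 5.10 ± 0.41 from near the floor. HSP31 was the member that fell (-0.60 ± 0.08). Of 16 genes of the vacuole and autophagy 15 were higher (93.8%) and 0 lower, with a median of 1.15, or 11 in a fit of only the 6 arrays. AMS1, the vacuolar mannosidase, read 4.76, 5.41 and 6.57 against 10.56, 10.52 and 10.51 (4.94 ± 0.36), and APE1, an aminopeptidase, rose by 1.99 ± 0.12. ATG39, the receptor for autophagy of the nucleus, was not on the list and rose by 6.80 ± 0.16. With values under 6 raised to 6 the differences were 2.36 for SOL4 and 3.40 for ATG39, both called.

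**Figure D3:**
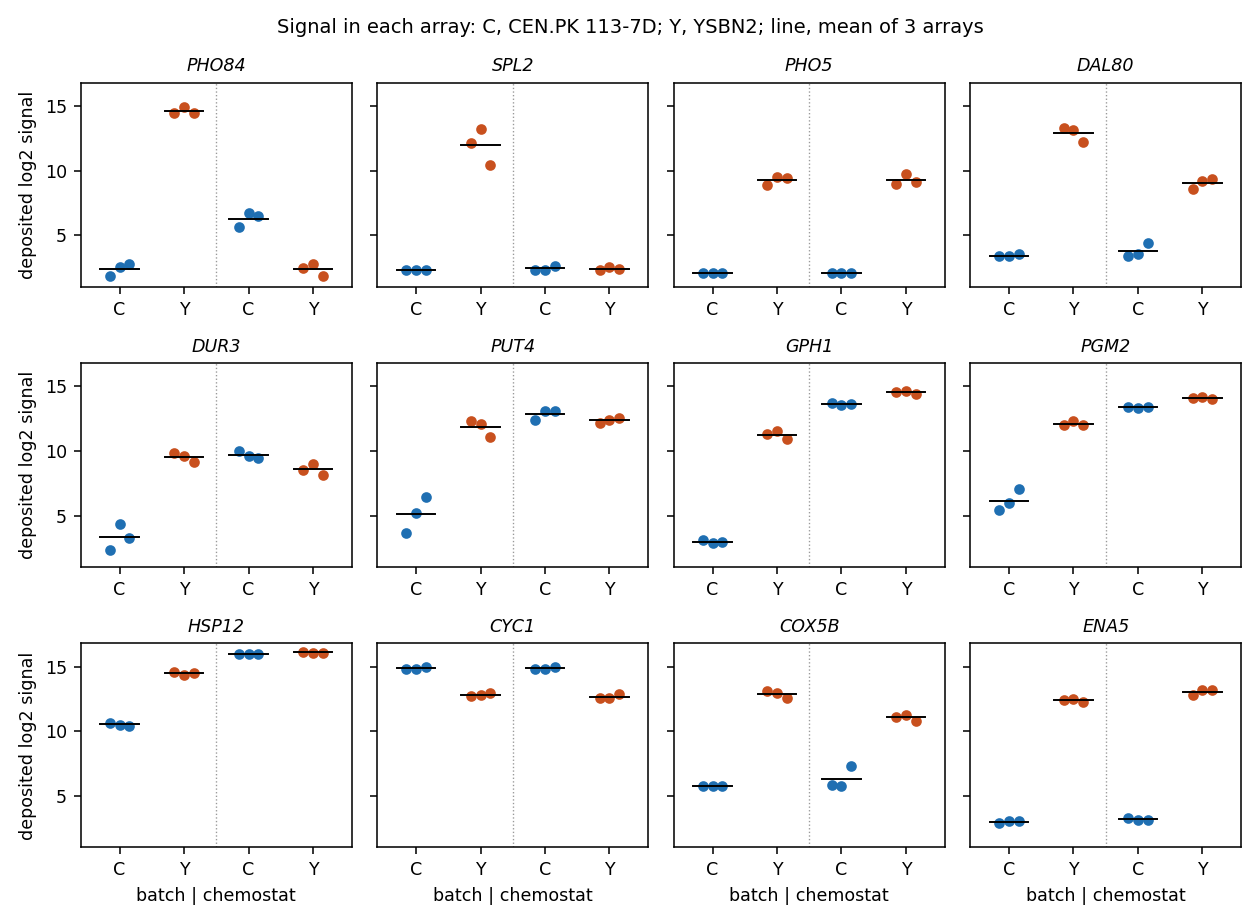
Deposited log2 signal (y axis) of 12 genes in every array, with CEN.PK 113-7D in blue, YSBN2 in orange, batch on the left and chemostat on the right of each panel; points are arrays and lines are means of 3. SPL2, GPH1, PGM2, DUR3 and PUT4 differ between the strains mainly in batch, PHO84 is higher in YSBN2 in batch and lower in the chemostat, and PHO5, ENA5, COX5B, DAL80 and CYC1 differ in both cultures.

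Of 16 glycolysis genes 5 were higher (31.2%, against 18.5% of all probe sets) and 0 lower. They were led by isozymes that glucose represses: HXK1, hexokinase 1, read 6.11, 9.18 and 9.26 in CEN.PK 113-7D and 13.38, 13.70 and 14.08 in YSBN2 (5.54 ± 0.69), and the glucokinase gene GLK1 rose by 3.06 ± 0.25. TDH1, a minor glyceraldehyde-3-phosphate dehydrogenase, read 12.66, 12.71 and 12.94 against 15.26, 15.38 and 15.48. In the TCA cycle 9 of 13 genes were higher (69.2%) and 0 lower, by small amounts (median 0.34). The succinyl-CoA ligase gene LSC2 was in front (1.11 ± 0.08). With a common array median 6 of the TCA genes were called, and in a fit of only the 6 arrays 4 were. Genes of gluconeogenesis and the glyoxylate cycle gave 3 higher of 15, near the share of all probe sets. CAT8, an activator of that group, rose from 3.63 ± 0.67 to 6.66 ± 0.32 (3.03 ± 0.31), and MLS1, malate synthase, rose by 3.59 ± 0.63, whereas the transporter genes JEN1 and ADY2 lay at the floor in both strains. ALD4, the mitochondrial aldehyde dehydrogenase, rose by 2.37 ± 0.13. The rises of CAT8 and MLS1 were 0.66 and 2.13 with values under 6 raised to 6.

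Sensing and transport of sugar differed in single genes. SNF3, a glucose sensor, rose by 2.63 ± 0.47. HXT4, a hexose transporter, read 14.02, 13.97 and 13.95 in CEN.PK 113-7D and 9.10, 9.64 and 13.91 in YSBN2. Its difference of -3.09 ± 1.02 (adjusted p = 0.048) became -4.61 without the third array and was not called with values under 6 raised to 6 (adjusted p = 0.06), in a fit of only the 6 arrays (adjusted p = 0.18), or without any single array other than that one (adjusted p from 0.1 to 0.16). MAL33, an activator of maltose genes, read 11.30, 11.15 and 11.27 against 2.80, 2.80 and 7.56 (-6.85 ± 1.04, or -8.43 without the third array). The cAMP pathway carries the glucose signal to protein kinase A. Of its 14 genes 7 were higher (50%, against 18.5% of all probe sets) and 0 lower. Without the third YSBN2 array 8 were higher and 2 lower. IRA1 and IRA2, which restrain Ras, rose by 1.25 ± 0.19 and 1.00 ± 0.20, and the adenylate cyclase gene CYR1 by 1.23 ± 0.20. In a fit of only the 6 arrays 2 of the 14 genes were called higher, and IRA2 was not called (adjusted p = 0.055).

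Genes of heme-dependent activation and of sterols were lower. Hap1 activates genes of respiration and sterol synthesis when heme is present, and HAP1 is known to carry a transposon insertion in the S288C lineage. Its own probe set was higher in YSBN2, at 12.60, 12.49 and 11.87 against 10.00, 10.27 and 10.46 (2.08 ± 0.19, adjusted p = 4.4e-05). Of 16 genes on the Hap1 list, HAP1 included, 10 were called lower (62.5%) and 4 higher, with a median of -0.58. Its members ERG2, ERG3, ERG5, ERG11 and HMG1 are also on the ergosterol list below. CYC1, CYC7 and CYT1 are also on the respiratory chain list, so the counts of these lists are not independent. CYC1, the main cytochrome c, went from 14.88 ± 0.11 in CEN.PK 113-7D to 12.83 ± 0.14 in YSBN2 (-2.05 ± 0.11, adjusted p = 1.5e-06). CYB5, cytochrome b5, fell by 2.04 (SE 0.14) and HMG1, an HMG-CoA reductase, by 1.71 (SE 0.06). Besides HAP1, CYC7, the minor cytochrome c, rose by 5.21 ± 0.25 and the catalase gene CTT1 by 4.09 ± 0.17, or 1.37 with values under 6 raised to 6.

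Of 28 ergosterol genes 17 were lower (60.7%) and 2 higher, with a median of -0.38, or 19 and 3 without the third YSBN2 array. ERG28, a scaffold of the pathway, fell by 1.22 (SE 0.15). ERG5 (-0.67 ± 0.10) and ERG3 (-0.63 ± 0.08), desaturases chosen after their values were seen, fell too. The genes that rose were UPC2, a sterol regulator (0.89 ± 0.16), and HMG2, the second HMG-CoA reductase (0.77 ± 0.12). The UPC2 call was lost after quantile normalization (adjusted p = 0.36).

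Respiratory chain genes were lower in 20 of 39 cases (51.3%) and higher in 4, with a median of -0.46, and a fit of only the 6 arrays gave 13 lower. CYT1, cytochrome c1, fell by 1.32 (SE 0.11) and RIP1, the Rieske protein, by 1.39 (SE 0.18). The risers included COX5B, the hypoxic isoform of a cytochrome oxidase subunit, which read 5.76, 5.75 and 5.74 in CEN.PK 113-7D and 13.11, 12.97 and 12.54 in YSBN2 (7.13 ± 0.36, adjusted p = 7.5e-07), CYC7 and QCR8. On the list of hypoxic genes 4 of 14 were higher (28.6%, against 18.5% of all probe sets). They were COX5B, AUS1, HMG2 and UPC2, and all but COX5B rose by less than 1. HMG2 and UPC2 are also on the ergosterol list. The AUS1 call was lost after quantile normalization (adjusted p = 0.071). Of the hypoxic genes 2 were lower (14.3%, against 10.5% of all probe sets), or 4 without the third YSBN2 array. TIR3, a cell wall mannoprotein of anaerobic growth, read 10.95, 12.12 and 12.11 against 5.24, 5.16 and 7.74 (-5.68 ± 0.84), and DAN1 lay at the floor in both strains.

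Genes of the mitochondrial ribosome and the proteasome were lower by small amounts, and how many were called depended on single arrays. Of 66 genes of the mitochondrial ribosome list 36 were lower (54.5%) and 1 higher, with a median of -0.51. The one higher, MRP8, is on the list by its name and is not a known ribosomal protein. Without the third YSBN2 array 50 were lower, without the first or the second 13, without CEN.PK 113-7D array 1, 2 or 3 there were 20, 19 and 17, and in a fit of only the 6 arrays 11. Of 33 proteasome genes 17 were lower (51.5%) and 0 higher, with a median of -0.31, or 25 lower and 1 higher without the third YSBN2 array. Without the first or the second YSBN2 array 9 and 11 were lower, without the second CEN.PK 113-7D array 10, and in the fit of only the 6 arrays 6. PRE4, a core subunit, fell from 13.95 ± 0.13 to 13.18 ± 0.20 (-0.77 ± 0.10, adjusted p = 0.00054). Of 57 ribosome biogenesis genes 0 were called in either direction, at a median of -0.26. Without the third array 39 of them were lower and the median was -0.67. The median of the list stood at -0.48, -0.80 and 0.39 in the 3 YSBN2 arrays relative to the CEN.PK 113-7D mean, so the third array lay on the other side of 0. The fibrillarin gene NOP1 was chosen after its values were seen. It ran from 14.55 to 14.81 in CEN.PK 113-7D and was 13.93, 14.02 and 14.67 in YSBN2 (-0.52 ± 0.18, adjusted p = 0.056, or -0.75 and called without the third array). Of 127 cytosolic ribosomal protein genes 10 were lower (7.87%) and 0 higher, below the share of all probe sets, and the median was -0.09. With a common array median 17 of them were lower, in a fit of only the 6 arrays 3 were, and without the third CEN.PK 113-7D or the second YSBN2 array 5 were.

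**Figure D4:**
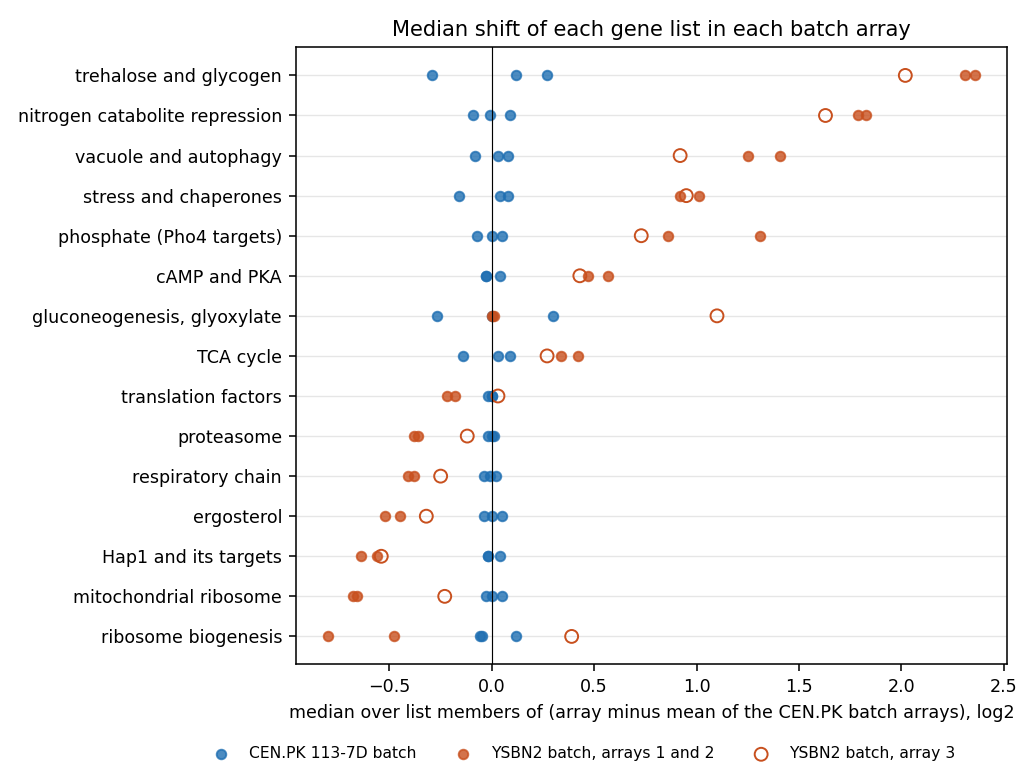
Median over list members of each batch array's signal minus the mean of the CEN.PK 113-7D batch arrays (x axis, log2), for 15 gene lists. Blue points are CEN.PK 113-7D arrays, filled orange points YSBN2 arrays 1 and 2, and open points YSBN2 array 3. For ribosome biogenesis array 3 lies at 0.39 while the other YSBN2 arrays lie at -0.48 and -0.80, and for gluconeogenesis it also lies apart from them.

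Metal genes were called about as often as all probe sets. Of 24 iron genes 5 were higher (20.8%, against 18.5% of all probe sets) and 3 lower (12.5%, against 10.5%). The siderophore transporter gene SIT1 rose by 5.15 ± 0.45 (1.95 with values under 6 raised to 6) and TIS11, which degrades messages of iron-using proteins, by 3.68 ± 0.51, while the heme oxygenase gene HMX1 read 10.09, 10.28 and 10.47 against 4.92, 4.19 and 5.07 (-5.55 ± 0.42). CTR3, a copper transporter, read 11.46, 10.88 and 10.88 against 8.48, 8.49 and 8.48 (-2.59 ± 0.17). Of 13 cell wall genes 7 were higher (53.8%) and 0 lower, or 3 in a fit of only the 6 arrays, with SED1 at 1.91 ± 0.19. FLO8, an activator of flocculin genes that is known to carry a nonsense mutation in the S288C lineage, read 9.87, 9.91 and 9.77 in CEN.PK 113-7D and 10.66, 10.50 and 10.49 in YSBN2 (0.70 ± 0.14, adjusted p = 0.0056). FLO11, a flocculin gene, read 6.74, 8.04 and 8.84 against 6.55, 6.72 and 7.00 and was not called (-1.12 ± 0.46, adjusted p = 0.1). QDR2, a plasma membrane transporter of drugs and potassium, rose from 2.19 ± 0.30 to 13.61 ± 0.20 (11.42 ± 0.34, or 7.61 with the raised floor).

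The strain difference was measured a second time in the chemostat, with arrays that the batch contrast does not share. There 1613 probe sets (28.2%) were called, 736 higher (12.9%) and 877 lower (15.3%). Of the 1060 probe sets higher in batch, 355 (33.5%) were also higher in the chemostat, 641 were not called there and 64 were lower, and the 355 made up 48.2% of those higher in the chemostat. Of the 601 lower in batch, 317 (52.7%) were also lower, 274 not called and 10 higher, and the 317 made up 36.1% of those lower in the chemostat. Across probe sets, which are not independent and share a fit, the 2 differences correlated with Pearson's r = 0.52 and Spearman's rho = 0.46.

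The difference between the contrasts was tested as an interaction and called in 882 probe sets (15.4%), with the strain difference more positive in batch in 634 (11.1%) and more negative in 248 (4.34%). Without the third YSBN2 batch array 1482 were called. In the storage carbohydrate list 13 of 18 genes were more positive in batch, and in the chemostat 6 were higher and 0 lower. For stress and chaperone genes the interaction was called in 15 of 24, all more positive in batch, and in the chemostat 1 was higher and 11 lower. In the vacuole list it was called in 11 of 16, and the chemostat gave 3 higher and 3 lower. Among the 22 nitrogen genes 12 were more positive and 2 more negative in batch, and in the chemostat 11 were higher and 2 lower, with a median of 0.77. DAL80 differed by 5.28 and DAL4 by 3.29 there. All 7 a-specific genes were lower in both cultures, with medians of -7.59 in batch and -3.50 in the chemostat and an interaction called in 5, and the haploid-specific genes were lower in 11 and 10 of 11 cases. Mitochondrial ribosome genes had medians of -0.51 and -0.52 and an interaction called in 1 of 66. Proteasome genes were lower in 30 of 33 cases in the chemostat (median -0.57), with 10 more positive in batch. For cytosolic ribosomal proteins the interaction was called in 26 of 127, all more negative in batch. In the chemostat 29 were higher and 1 lower, and in batch 0 were higher and 10 lower.

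**Figure D5:**
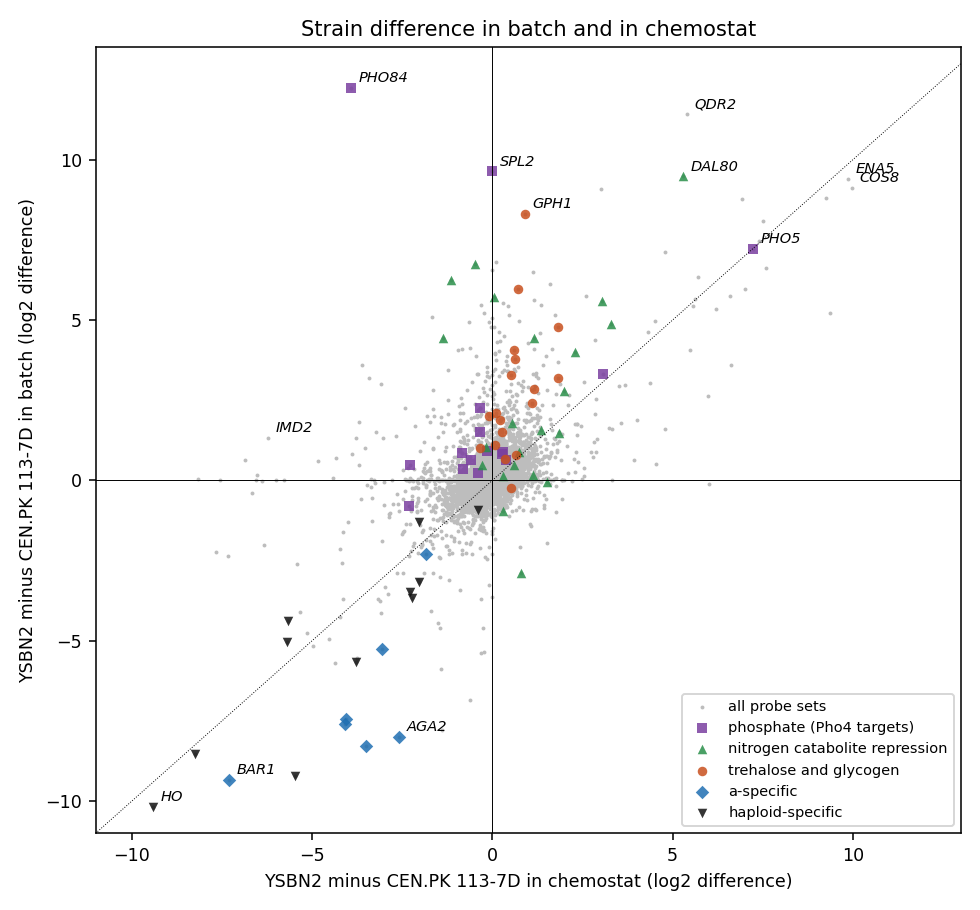
Strain difference (YSBN2 minus CEN.PK 113-7D, log2) of every probe set in batch (y axis) against chemostat (x axis), with 5 gene lists marked by symbol and colour and the dotted line marking equal differences. Storage carbohydrate and nitrogen genes have medians of 2.25 and 1.69 in batch and of 0.56 and 0.77 in the chemostat. PHO84 lies at 12.23 in batch and -3.92 in the chemostat, and ENA5, COS8, PHO5 and HO lie close to the line.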

How the data were processed

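The deposited values are log2 signals per probe set. R 2.6, affy and RMA are named in the submitters' processing notes, with no order or settings, and the log base is read from the range of the values. Of 5716 probe sets, 5498 had 1 gene name, 0 several and 218 none. Names were updated through the RefSeq table of assembly R64. In limma 3.58.1 (R 4.3.3), 1 mean per group was fitted over all 12 arrays with lmFit and eBayes, and the Benjamini-Hochberg adjustment ran over all probe sets. Gene lists used each gene's brightest probe set. Named genes were the 15 largest called changes in each direction, up to 3 per list and direction, any member of lists of 15 or fewer, HO, HAP1 and FLO8, the 10 largest interactions in each direction, neighbouring runs and values far apart in the third YSBN2 array. The text marks the exceptions, which were picked from their values. Members and lists were chosen with earlier results of these data known. On simulated data for the batch comparison over 5716 probe sets, 50 changes each of 0.5, 1, 2 and 3 log2 units were recovered at 52%, 64%, 96% and 100%, and 8.77% of calls were false. The simulated noise was normal and independent, with no outlying array. All other simulated probe sets were unchanged, whereas 29.1% were called in the data. These rates therefore need not hold for the real comparison. The number of arrays limits the precision. Alternatives covered scaling, the floor, a filter on dim probe sets, the fit and leaving out each array.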

Additional observations from a re-analysis of the deposited data

Results flagged for a closer look

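The strain difference was tested for a difference between batch and chemostat, and 882 probe sets passed. The genes with the largest values, given as the batch difference minus the chemostat difference on the log2 scale, were as follows. More positive in batch were PHO84 (16.15), SPL2 (9.64), PAU3 (8.19), ANS1 (7.56), IMD2 (7.55), YJR115W (7.47), GPH1 (7.41), DUR3 (7.38), PUT4 (7.25) and MLS1 (7.21). More negative in batch were YER053C-A (-6.41), MAL33 (-6.23), YIL046W-A (-6.10), AGA2 (-5.42), COS12 (-5.04), MFA2 (-4.78), FUS1 (-4.45), SST2 (-4.35), SEO1 (-4.14) and YLL066W-B (-4.04). The value of YLL066W-B is from 1 of its probe sets.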

How the results depend on the processing

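At adjusted p under 0.01, 947 probe sets were called in batch (644 higher, 303 lower), 860 in the chemostat (358 and 502) and 407 for the interaction (331 and 76). A fit of only the 6 batch arrays called 955 (624 and 331). Leaving out 1 batch array gave 1215 to 2485 calls in batch, 775 to 1370 higher and 399 to 1115 lower, the extremes of the lower calls coming without the second and without the third YSBN2 array. The interaction then gave 679 to 1482 calls, 520 to 896 more positive and 159 to 586 more negative, and the chemostat contrast gave 1412 to 2200 calls. The more negative interactions numbered 409 with a common array median and 537 after quantile normalization. Deviations of same-numbered arrays correlated at 0.165, 0.003 and 0.148, and those of differently numbered arrays at -0.16 to 0.125. These values do not settle whether the replicate numbers mark pairs, and the main fit did not take them as pairs. With replicate number as a block, 1787 probe sets were called over the 12 arrays and 507 among the 6 batch arrays (353 and 154), where 20 of the 118 called genes named in the text were not called. Most list counts fell in that 6-array block fit. There 7 of 18 storage carbohydrate genes, 4 of 16 phosphate genes and 0 of 14 cAMP genes were higher. Lower were 4 of 39 respiratory chain genes and all 7 a-specific genes. With values under 6 raised to 6 the ASG7 difference was 0.00. Of the 118 called genes, 94 were called in every setting that tested them. Differences under about 0.1 log2 units can change direction with a common array median. Quantile normalization moved some list medians further. The median went from 0.49 to -0.04 for gluconeogenesis and the glyoxylate cycle and from 0.22 to -0.37 for maltose and sucrose genes. Signal near the floor limits the size of the largest differences.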

Other observations

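Genes outside the groups above also differed between the strains in batch. The aquaporin gene AQY2 read 12.17, 12.30 and 12.19 in CEN.PK 113-7D and 7.43, 7.46 and 7.55 in YSBN2 (-4.74 ± 0.23 SE, limma adjusted p = 6e-07), and its difference in the chemostat was -5.13. GDH3, a glutamate dehydrogenase, read 1.89, 2.42 and 3.17 against 8.65, 7.97 and 8.13 (5.76 ± 0.32), or 2.25 with values under 6 raised to 6. DCS2, a regulator of cap decay, rose by 5.46 ± 0.25, with a chemostat difference of -0.32. AQY2, GDH3 and DCS2 were chosen after their values were seen.

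On a list of 13 genes, cyclins and the cell cycle inhibitors SIC1 and WHI5, 4 were higher (30.8%, against 18.5% of all probe sets) and 0 lower. Without the third YSBN2 array 4 were higher and 3 lower. SIC1 was among those higher with all arrays. The G1 cyclin gene CLN1 read 9.89, 9.79 and 10.08 against 11.96, 11.99 and 12.24 (2.14 ± 0.13), and the B-type cyclin gene CLB1 rose by 1.40 ± 0.07. Of 12 multidrug resistance genes 6 were higher (50%, against 18.5% of all probe sets) and 1 was lower (8.33%, against 10.5%). A fit of only the 6 arrays gave 3 higher. The lower one, ATR1, an exporter of boron and drugs, fell by 2.28 (SE 0.16), while the ABC transporter gene YOR1 rose by 1.23 ± 0.09. Genes of the Ehrlich pathway and ester synthesis gave 5 of 10 higher (50%, against 18.5% of all probe sets) and 2 lower (20%, against 10.5%). BAT2, the cytosolic branched-chain aminotransferase, rose by 2.31 ± 0.16, and the alcohol acetyltransferase genes moved apart, with ATF1 at 1.61 ± 0.21 and ATF2 at -3.77 ± 0.48. Seripauperin genes, a subtelomeric family of near-identical members whose probe sets may read each other, gave 3 of 13 higher (23.1%, against 18.5% of all probe sets) and 2 lower (15.4%, against 10.5%).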
